A study of Mus musculus with 3 samples.

Results

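The globin junctions are the 3 rows, of 563 in the deposited table of circRNAs, whose host gene is Hba-a1, Hbb-bs or Hbb-bt. All 3 were found and are described. circRNAs are RNA circles closed by a back-splice, in which an exon's end is spliced to a start that lies upstream of it. A read over that join is a junction read. The table counts junction reads in RNA of plasma exosomes, small vesicles in blood, from male wild type C57BL/6 mice. There was 1 library for each of 3 groups: model + EA, model and normal, each a group of 10 mice. Pooling of mice within a library is not given in the sources used. Model mice were fed a high-fat diet for 6 weeks and then injected with STZ, a toxin of islet β cells. Model + EA mice were the same model given 12 sessions of electroacupuncture (EA) within 4 weeks, each of 15 minutes with a frequency of 2 Hz. Normal mice received basic forage.

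GEO's titles and the study's own comparison tables give the 3 libraries to different groups. The titles are followed here, so each library is called by its title. In the comparison tables the library titled model + EA is the normal one, the library titled model is the model + EA one, and the library titled normal is the model one. Every direction between groups below depends on this assignment, while the structure of the junctions does not. With 1 library per group no difference has a replicate check and there are no p-values. Junction reads added up to 2913 in the library titled model + EA, 4372 in that titled model and 4125 in that titled normal.

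Hemoglobin, the oxygen carrier of red cells, is built from alpha and beta globin chains. In the mouse, adult alpha globin is made by the neighbouring genes Hba-a1 and Hba-a2 on chromosome 11, and adult beta globin of the C57BL/6 strain by the neighbouring genes Hbb-bs and Hbb-bt on chromosome 7. Each pair arose by gene duplication. Globin mRNA is the main mRNA of reticulocytes, the youngest red cells in blood, and each globin gene has its coding sequence in 3 exons. circRNA callers search for reads whose segments align in reversed order, which is also how a read looks if its segments are placed in different copies of a duplicated gene.

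Of the 3 globin junctions, 2 joined different genes and 1 lay within a single gene. The row named Hba-a1 ran on the plus strand of chromosome 11 from 32284263 to 32296945 (mm10). Its lower end was the first base of exon 3 of Hba-a1, and its upper end was the last base of exon 2 of Hba-a2. The row named Hbb-bt ran on the minus strand of chromosome 7 from 103813439 to 103826793. Here the lower end was the last base of exon 2 of Hbb-bt, and the upper end was the first base of exon 3 of Hbb-bs. Both junctions therefore joined the end of an exon 2 to the start of an exon 3 of the neighbouring paralog, which lies upstream on the same strand. The starts of the paralogs were 12978 bases apart for alpha and 14100 for beta, and the joined stretch spanned 12683 and 13355 bases. Between Hba-a1 and Hba-a2 lies 1 annotated gene, the alpha-like Hbq1b, and between Hbb-bs and Hbb-bt the annotation holds 0.

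**Figure D1:**
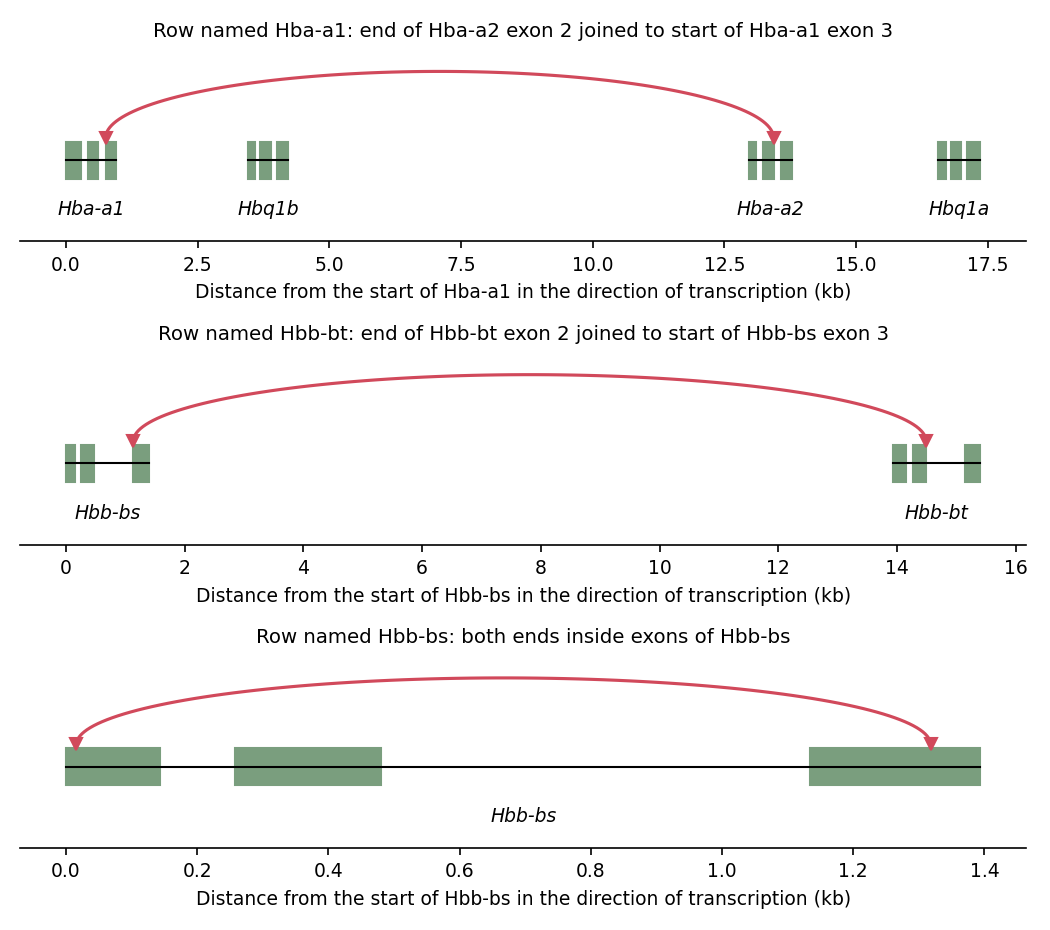
Position of the 3 globin junctions on annotated genes. Boxes are exons, the horizontal axis is the distance in kb along the direction of transcription, and arcs with arrowheads join the ends of each junction. The arcs of the rows named Hba-a1 and Hbb-bt end in different genes, while that of the row named Hbb-bs has both ends inside exons of Hbb-bs.

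The letters of these joins are shown because they are the same as those of the ordinary mRNAs. The last 15 bases of exon 2 are in lower case and the first 15 bases of exon 3 in capitals, from the transcript sequences of GENCODE M21.
Hba-a2 exon 2 joined to Hba-a1 exon 3: cccgtcaacttcaagCTCCTGAGCCACTGC
Hba-a1 exon 2 and exon 3: cccgtcaacttcaagCTCCTGAGCCACTGC
Hba-a2 exon 2 and exon 3: cccgtcaacttcaagCTCCTGAGCCACTGC
Hbb-bt exon 2 joined to Hbb-bs exon 3: cctgagaacttcaggCTCCTGGGCAATATG
Hbb-bs exon 2 and exon 3: cctgagaacttcaggCTCCTGGGCAATATG
Hbb-bt exon 2 and exon 3: cctgagaacttcaggCTCCTGGGCAATATG
In both families the back-splice between paralogs read the same as the forward splice of exon 2 to exon 3 within either gene.

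The identity reached far beyond these letters. Exon 2 was the same in Hba-a1 and Hba-a2 over its 205 bases and in Hbb-bs and Hbb-bt over its 223 bases. Exon 3 was identical for 80 bases in the alpha pair and for 101 bases in the beta pair. The first difference in exon 3 was C81T between Hba-a1 and Hba-a2 and C102T between Hbb-bs and Hbb-bt (position counted from 1 at the start of exon 3, with the base of the gene named first before it). Upstream, the alpha mRNAs were identical through exon 1 up to the annotated start of the Hba-a2 mRNA, and the beta mRNAs for another 106 bases into exon 1. The unbroken identical stretch around the join was thus 415 bases in the alpha pair and 430 bases in the beta pair. Intron 2, which the ordinary splice removes, measured 134 bases in Hba-a1 and in Hba-a2, and 654 bases in Hbb-bs and in Hbb-bt. Within these stretches a read carries the same bases whether exon 2 was spliced forward within a gene or back across the pair, so the deposited counts cannot tell these apart. Which of them gave the reads was not tested.

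The sites at which the paralogs first part are shown with 15 bases before and 14 after the differing base, which is in capitals.
Hba-a1 exon 3: gcatgcctctctggaCaaattccttgcctc
Hba-a2 exon 3: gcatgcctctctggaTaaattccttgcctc
Hbb-bs exon 3: ggtggctggagtggcCgctgccctggctca
Hbb-bt exon 3: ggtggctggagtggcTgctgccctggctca
A single base separates the copies at each site, and a read reaches it only when it covers more than 80 bases of exon 3 in the alpha pair or more than 101 in the beta pair.

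**Figure D2:**
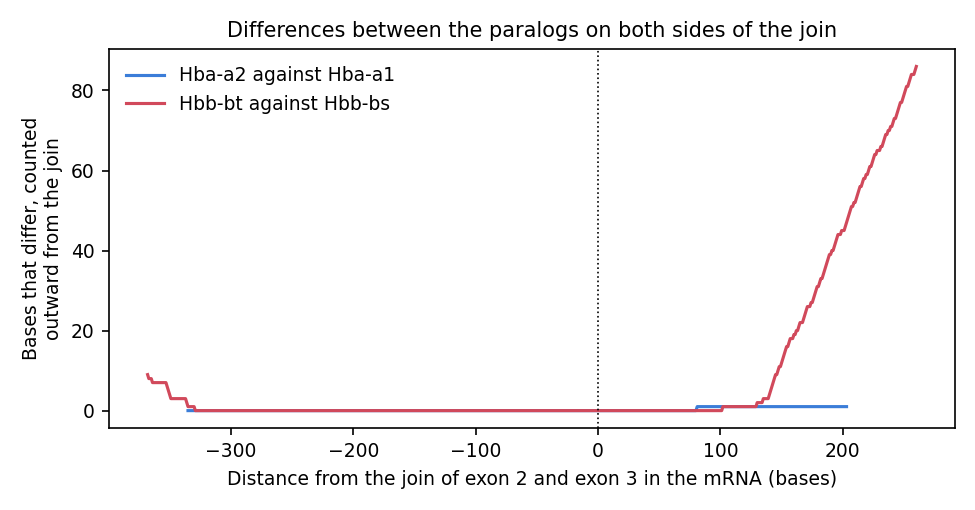
Differences between the paralogous mRNAs, counted outward from the join of exon 2 and exon 3 without gaps (vertical axis), against the distance from the join in bases (horizontal axis, with exon 2 and exon 1 to the left and exon 3 to the right). Both lines stay at 0 on the left through exon 2 and on the right for 80 bases in the alpha pair and 101 bases in the beta pair.

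The other globin genes of each cluster differed at the same place. Capitals mark the bases that differ from the adult genes over the 15 bases on each side of the join.
Hba-x: ccGgtcaacttcaagctcctgTCccactgT
Hbb-bh1: cctgagaacttcaAgctcctgggcaaCatg
Hbb-y: cctgagaacttcaAActcTtgggTaatGtg
Hba-x, the embryonic zeta-like gene, differed at 4 of 30 bases, and the theta-like Hbq1a and Hbq1b at 10 and 8. In the beta cluster, the embryonic genes Hbb-bh1 and Hbb-y differed at 2 and 5 bases, and Hbb-bh2 at 3. Over 30 bases on each side the differences ranged from 9 to 16 of 60 in the alpha cluster and from 7 to 10 of 60 in the beta cluster. The adult pairs were therefore the only genes of their clusters among those compared that matched at every base of this window.

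Joins of this kind were rare in the table. Both ends fell in annotated genes of the same strand that differed in only 3 of 563 rows (0.533%), of which 2 were the globin rows. The third joined mt-Rnr1 to mt-Rnr2, the mitochondrial rRNA genes, with 10 reads in the library titled model + EA alone, and its ends lay 54 and 745 bases from the nearest exon edge. Both ends of the globin joins between genes were exon edges, as in 470 of 563 rows (83.5%). For 513 rows the bases beside both ends could be read from transcripts. With 25 bases taken on each side, the joined sequence occurred in an annotated linear transcript for 2 of these rows (0.39%), the same 2 globin rows. With 15 bases a side there were 3 rows (0.585%), the third a junction of Plagl1, named after its value was seen. The alpha join was found in 4 transcripts, which belong to Hba-a1 and Hba-a2, and the beta join in 3, which belong to Hbb-bs and Hbb-bt. For the Hbb-bs row it was found in 0.

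The alpha junction had 5 reads in all. The row named Hba-a1 had 1 read in the library titled model + EA (exact 95% Poisson interval 0.0253 to 5.57), 2 in that titled model (0.242 to 7.22) and 2 in that titled normal (0.242 to 7.22). As shares of junction reads these were 0.0343%, 0.0457% and 0.0485%, with wide exact (Clopper-Pearson) intervals of 0.000869% to 0.191%, 0.00554% to 0.165% and 0.00587% to 0.175%. The intervals of the 3 libraries overlapped. These intervals hold counting error alone, because PCR duplicates cannot be separated from distinct molecules here.

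The beta junction between genes was also found in every library, with few reads in each. The row named Hbb-bt had 3 reads in the library titled model + EA (0.619 to 8.77), 5 in that titled model (1.62 to 11.7) and 4 in that titled normal (1.09 to 10.2). The shares were 0.103%, 0.114% and 0.0970%, so that the highest was 1.18 times the lowest. Beta exceeded alpha in each library, by a ratio of 3, 2.5 and 2 in the same order. Summed over the 3 libraries there were 12 beta and 5 alpha reads, a ratio of 2.40 with an exact interval of 0.787 to 8.70 that includes 1, so a difference between both junctions was not detectable at this depth.

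**Figure D3:**
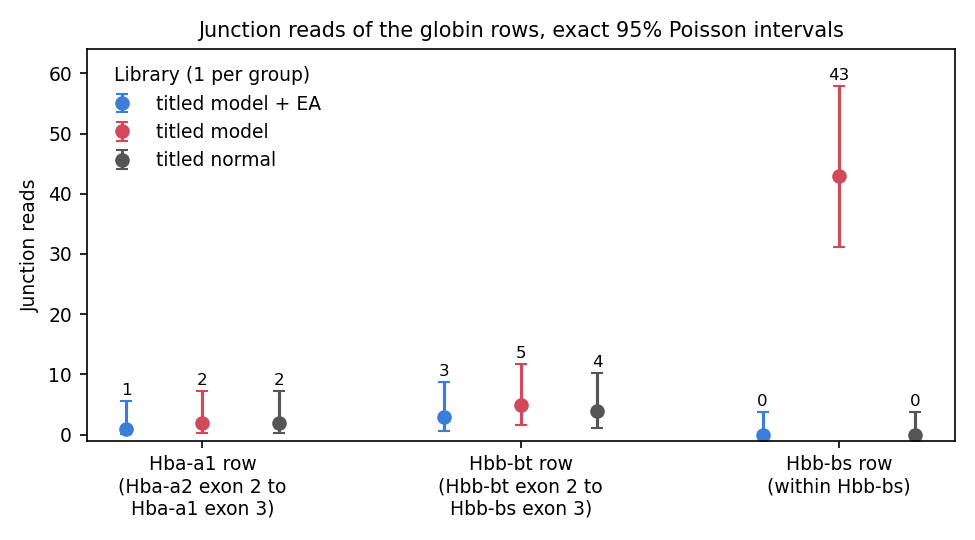
Junction reads of the globin rows in each library (vertical axis) with exact 95% Poisson intervals as bars, for the libraries titled model + EA, model and normal from left to right. The rows that join different genes have 1 to 5 reads in each library, while the row within Hbb-bs has 43 reads in the library titled model and 0 in both others.

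Reads in every library were unusual in this table. Of the 563 rows, 520 (92.4%) had reads in 1 library only and 11 (1.95%) in all 3, and both globin joins between genes were among these 11. The other 9 were exonic circRNAs with 29 to 67 reads in their highest library, whereas the globin rows had at most 2 and 5. Of the 117 rows with at most 5 reads in their highest library, 114 were found in 1 library, 1 in 2 libraries and 2 in all 3, and the last were the globin rows. The limit of 5 reads equals the highest count of the row named Hbb-bt, so this set was drawn with the globin rows' own values known. The ratio of the highest to the lowest share was 1.41 for the row named Hba-a1 and 1.18 for the row named Hbb-bt, against 1.37 to 47.3 (median 2.12) for the other 9. The row named Hbb-bt was the most even of the 11 and the row named Hba-a1 came at rank 4. On reads scaled by the authors' factors these ratios were 2.55 and 1.72, against 2.47 to 85.5 (median 3.73) for the other 9, and the rows came at ranks 5 and 1. These are descriptions of 3 libraries, and shares from so few reads carry the intervals given above.

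**Figure D4:**
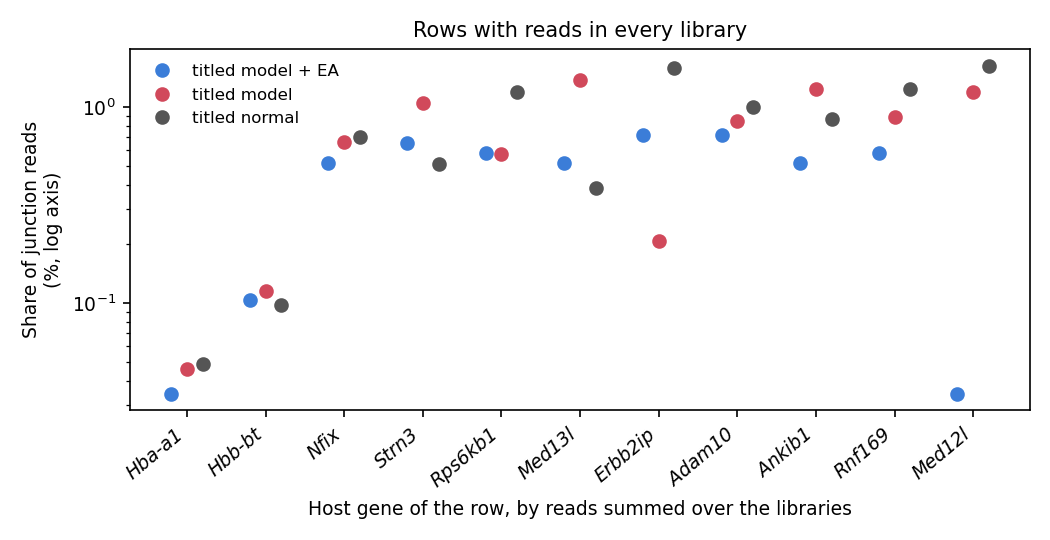
Share of junction reads in each library (vertical axis, percent on a log axis) for the 11 rows with reads in every library, ordered by summed reads along the horizontal axis. The globin rows named Hba-a1 and Hbb-bt hold the lowest summed reads, 5 and 12, and the shares of the row named Hbb-bt lie between 0.0970% and 0.114%.

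The third junction, named Hbb-bs, was of another kind. It lay within Hbb-bs on the minus strand of chromosome 7, from 103826610 to 103827912, a stretch of 1303 bases that made up 93.4% of the 1395 bases between the start and end of the main transcript. Its upper end lay in exon 1, 16 bases after the transcript start and in the 5′ UTR. Its lower end lay in exon 3, 76 bases before the transcript end and in the 3′ UTR. Neither end was an exon edge, which was the case for 37 of 563 rows (6.57%). The length predicted in the table is also 1303 bases, the whole genomic span with both introns. This held for each of the 70 rows (12.4%) that the authors classed as sense overlapping, the class of the 3 globin rows, and spliced of its introns the stretch would measure 536 bases.

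The letters at both ends of this stretch are shown because they hold the splice signals. The joined stretch is in capitals in the first pair of lines, and in the last line the capitals mark the bases that follow the join.
Hbb-bs 5′ end: acatttgcttctgacATAGTTGTGTTGACT
Hbb-bs 3′ end: TTCCCAAGAGAGCATctgtcagttgttggc
Hbb-bs junction: ttcccaagagagcatATAGTTGTGTTGACT
An intron usually starts with GT and ends with AG, so a back-splice is expected to have AG just before its 5′ end and GT just after its 3′ end. On the strand given in the table the Hbb-bs junction had AC before and CT after. Read on the opposite strand, the same bases were AG before and GT after. The annotation holds 0 genes on that opposite strand over the stretch. The join could be shifted by 0 bases without a change in the joined letters, so the ends are placed exactly.

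Flanking bases could be read from transcripts for 43 rows, since no genome sequence was used. Reading them required that the bases beside both ends lie within an annotated exon. Most rows that end at exon edges beside introns are therefore left out. The shares below describe these 43 rows and not the whole table. Of these, 34 had AG and GT on the strand given and 9 (20.9%), the Hbb-bs row included, had them on the other strand. Each of these 9 rows was found in 1 library only, as were 92.4% of all rows. All 9 had 0 ends at an exon edge, and so did 8 of the 34 others. Edges were those of exons on the strand given, beside which AG and GT usually lie on that strand. The lack of edges in the 9 rows was thus largely set by how edges were defined. The library titled model + EA held 1 of the 9, that titled model 7 and that titled normal 1. Of all 563 rows, 49.7%, 18.7% and 24.0% were found only in these libraries, in the same order. The split of the 34 others by library was not counted. Per the study's methods the libraries were made with a stranded kit. Whether strand was used in the calling of circRNAs is not given in the sources used. The strand from which the Hbb-bs reads came can therefore not be told from the deposited counts.

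The Hbb-bs junction had 0 reads in the library titled model + EA, 43 in that titled model (31.1 to 57.9) and 0 in that titled normal. In the library titled model this was 0.984% of junction reads (exact interval 0.713% to 1.32%), and 28 of the 140 rows found there had more reads. A count of 0 allows up to 3 reads, which is 0.103% of the library titled model + EA and 0.0727% of that titled normal. Single-library rows of this size were common. Of the 105 rows (18.7% of the table) found only in the library titled model, 19 had more reads and the median was 33.0.

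Between the libraries titled model and normal, only the Hbb-bs junction was called at 2-fold. The study's methods set a 2-fold threshold for model + EA against both other groups, and here it was applied to each pair of libraries on its own. The Hbb-bs junction was higher in the library titled model, by 11.6-fold against a floor of 3 reads in place of 0. By the 2-fold rule 22.6% of all rows were higher there and 25.9% lower. This fold takes the 43 reads without their counting error, so it is not an exact lower limit. The row named Hbb-bt gave a ratio of 1.01 (exact interval 0.218 to 5.11). No fold is given for the row named Hba-a1, which had 2 reads in each. Ratios were taken between reads scaled by the authors' factor for each library.

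Between the libraries titled model + EA and model, 2 of the 3 junctions were called lower, against 23.1% of all rows (51.7% were called higher). The Hbb-bs junction was 14.8-fold lower in the library titled model + EA against the floor of 3 reads, again without the counting error of the 43 reads. The other was the row named Hba-a1, with 1 read against 2, for which no fold is given because both counts are at or under the floor. The row named Hbb-bt had a ratio of 0.580 (0.0900 to 2.98). Between the libraries titled model + EA and normal, 1 junction was called, the row named Hba-a1 (1 read against 2), where 27.0% of all rows were called lower and 53.6% higher. The row named Hbb-bt had a ratio of 0.588 (0.0861 to 3.48), and the Hbb-bs junction had 0 reads in both. The direction of the row named Hbb-bt depended on the scaling. For model + EA over normal its log2 ratio was -0.77 by the authors' factors, 0.09 by total junction reads and 0.86 by TMM factors, and for model + EA over model it was -0.79, -0.15 and 0.30. The comparisons share libraries and are not independent of each other. By the groups of the study's comparison tables, the Hbb-bs junction was higher in model + EA. Against the same floor it was 11.6-fold above model and 14.8-fold above normal.

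All globin junctions together held 4 reads in the library titled model + EA, 50 in that titled model and 6 in that titled normal. These were 0.137% (0.0374% to 0.351%), 1.14% (0.850% to 1.51%) and 0.145% (0.0534% to 0.316%) of junction reads. Without the Hbb-bs junction the library titled model held 7 reads, or 0.160% (0.0644% to 0.330%), and the intervals of the 3 libraries overlapped. The excess of the library titled model thus lay in the Hbb-bs row alone.

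Other genes of red cells also gave junctions, mostly in a single library, as did 520 of all 563 rows (92.4%). Of 60 erythroid genes listed, 10 were hosts in the table, with 14 rows in all. Without the globin genes there were 11 rows from 7 hosts, with 70 reads in the library titled model + EA, 111 in that titled model and 27 in that titled normal. Of these rows, 8 were exonic with both ends at exon edges, and 3 were sense overlapping with 0 or 1 end at an edge. They included Slc25a37, the mitochondrial iron importer, with 21 and 5 reads from different junctions, and Car2, a carbonic anhydrase, with 12 reads, all in the library titled model + EA. Hemgn, a nuclear protein of erythroid cells, had 11 reads in the library titled normal alone. Zfpm1, the cofactor of the erythroid transcription factor Gata1, had 9 reads in the library titled model + EA, 0 in that titled model and 16 in that titled normal. The 111 reads of the library titled model came from 3 junctions of the transcription factor Sox6 with 47, 57 and 7 reads. Another Sox6 junction had 12 reads in the library titled model + EA alone. Dmtn and Ank1 had 8 and 3 reads, also in the library titled model + EA alone. By the 2-fold rule, 3 of the 11 rows were higher and 2 lower in the library titled model than in that titled normal, where 22.6% and 25.9% of all rows were. In the library titled model + EA, 7 were higher and 3 lower than in that titled model (51.7% and 23.1% of all rows), and 6 were higher and 2 lower than in that titled normal (53.6% and 27.0%).

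The lists for other blood and liver cells were shorter than the erythroid list, where 7 of 57 genes without globin were hosts. The share of hosts among all annotated genes was not counted, so the lists do not rank cell types. Of 12 platelet and 8 hepatocyte genes listed, 0 were hosts, and of 10 leukocyte genes 1 was, Ikzf1, with 6 reads in the library titled model + EA, 0 in that titled model and 61 in that titled normal. These counts hold for the lists used, and Gp6, a platelet collagen receptor that was not listed and is named after its value was seen, had 37 reads in the library titled normal alone. Because the table counts back-splice junctions only, the linear mRNAs of these markers and of the globin genes themselves were not measured. The part of red cell RNA in the globin junction reads was not tested.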

How the data were processed

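Per the submitters' processing notes and the study's methods, cutadapt 1.9.3 was used for trimming, STAR 2.5.1b for alignment to mm10 and DCC for finding circRNAs. For each circRNA and library the authors deposited a count (junction reads) and a normalized value on the log2 scale. The deposited log2 values equalled the counts after multiplication by a library's factor (1.00 for the library titled model + EA, 1.03 for that titled model and 1.28 for that titled normal), with 0.1 reads in place of 0. What the factors rest on is not given.

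Rows were selected by host name (3 of 563), and their ends were placed on the genes, exons and transcripts of GENCODE M21, which uses the same assembly. Sequences come from its transcript file, and joins were searched as exact words in all transcripts. Ratios of scaled counts carry exact 95% intervals from the binomial split of the reads. A count of 0 was taken to allow 3 reads, and pairs of counts that both lie within 3 reads got no fold. Calls use the 2-fold threshold of the study's methods, which set it for model + EA against both other groups, on each pair of libraries singly. Intervals, calls, position mapping and word search were tested on simulated data. Alternatives used other scalings (edgeR 4.0.16 for TMM), zero replacements, thresholds, windows and groups. All 3 members were named. The members, lists and alternatives were chosen with earlier results of these data known, and the search of joins in transcripts and the reading of flanking bases were chosen after the data were seen. The analysis ran in Python 3.11.15 and R 4.3.3.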

Additional observations from a re-analysis of the deposited data

How the results depend on the processing

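The structure of the junctions kept its values: 2 of the 3 globin junctions joined different genes with ends counted in exons only or gene boundaries widened by 100 bases, 4 of the 6 ends were exon edges within 0, 2 or 10 bases, the paralogs were 100% identical over 15, 30 or 75 bases on each side of the join, and 2 globin joins occurred in linear transcripts with 15, 25 or 40 bases a side. With 15 bases 1 other row matched as well. The fold of the Hbb-bs junction moved with the value in place of 0. With 0.5 reads its log2 ratio was 6.12 (model over normal) in place of 3.54 against the floor of 3 reads. For model + EA over model it was -6.48 in place of -3.89. For model + EA against model the log2 ratio against the floor was -3.26 when scaled by total junction reads, -3.27 by totals without globin and -2.80 by TMM factors. It turned to 3.54 with the groups of the study's comparison tables.

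The count of called junctions rested on the row named Hba-a1, with 1 or 2 reads. For model + EA against model it was 1 in place of 2 when scaled by totals, by totals without globin or by TMM factors, at 4-fold, with the exact interval beyond 2-fold, with at least 10 reads, or with the groups of the study's tables. For model + EA against normal it was 0 in place of 1 when scaled by totals with or without globin, at 4-fold, with the exact interval, or with at least 10 reads, and 2 with the groups of the study's tables. Under TMM factors the 1 junction called there was Hbb-bs, which has 0 reads in both libraries, so that call rests on the scaling of the value in place of 0. As shares of rows with reads in place of shares of reads, globin junctions made up 0.625% in the library titled model + EA, 2.14% in that titled model and 1.27% in that titled normal. The other 49 of 71 alternatives kept their value, stayed within the counting interval or, for the folds of Hbb-bs against the floor, moved by under 1.5-fold (to 4.08 by TMM factors for model over normal). Some of these 49 could not differ. For the folds of Hbb-bs, 3 reads in place of 0 repeats the floor, and the windows beside the joins between genes lie within the identical stretch of the paralogs. The log2 ratio of the row named Hbb-bt changed sign within its interval, to 0.09 by total junction reads with or without globin, 0.86 by TMM factors and 0.79 with the groups of the study's tables for model + EA over normal, and to 0.30 by TMM factors and 0.02 with those groups for model + EA over model. No paired analysis was possible because each group has 1 library. Depth limits the joins between genes, whose 1 to 5 reads per library gave ratio intervals wider than 10-fold.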
